A study of Mus musculus with 32 samples.

Results

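The mesenteric lymph nodes of CD30 ligand transgenic mice were compared with those of their non-transgenic littermates. All arrays whose label gave this tissue were used, 4 transgenic and 4 wild type, which is 8 of the 32 arrays of the series. All were females of the C57BL/6 strain, 12 weeks old. The transgenic animals held a CD2-CD30L transgene, in which regulatory sequences of CD2, a T cell gene, drive CD30 ligand. The wild type mice carried no transgene. Each mouse gave 1 mesenteric array and 1 array each of peripheral lymph node, spleen and thymus. Genotype was taken from the source label, because the titles of 2 of the 4 transgenic mesenteric arrays give a mouse number and tissue without naming the transgene. The model limits what can be read: CD30 ligand is forced onto T cells, whole nodes were measured, and the number of founder lines is not given in the sources used here.

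CD30 ligand (gene Tnfsf8) is a membrane protein of the TNF family. Its receptor CD30 (gene Tnfrsf8), carried by activated lymphocytes, recruits TRAF adaptors and feeds into the NF-kB pathways. The mesenteric node drains the gut. Microbial and food antigens keep germinal centres active there in healthy mice, and B cells in those centres divide rapidly, mutate their antibody genes and switch to IgA. Dividing cells express a large, coordinated programme of genes for replication and mitosis, so a shift in the share of dividing cells is read out by many transcripts together.

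Levels are log2 of the deposited probe set intensity plus a pseudocount of 16, after quantile normalization of the 8 arrays. Differences are transgenic minus wild type on this scale, with the standard error (SE) of the fit and 4 mice per genotype. The pseudocount makes differences of dim probe sets smaller than the true change. The tissue label was supported by abundant lymph node transcripts on all 8 arrays: Glycam1, a mucin of the high endothelial venules, read 12.91 to 13.22, Cd79a, a subunit of the B cell receptor, 11.95 to 12.32, and Igha, the IgA heavy chain, 13.09 to 13.32. Fat was also present on every array, with Car3 at 12.72 to 13.12. Several measurements set single arrays apart. The mean of 21 exocrine pancreas genes was 11.86 in transgenic mouse 1, 11.54 in transgenic mouse 3 and 12.74 in wild type mouse 2, against 5.00 to 5.35 in the other 5 mice. The 3' to 5' intensity ratio of the Actb control probe sets, a sign of RNA quality, was 3.10 in transgenic mouse 1 and 1.59 to 1.75 in the others. The trimmed mean intensity ran from 106 in wild type mouse 2 to 232 in wild type mouse 1. Several groups are also given without the 3 arrays that carried pancreas transcripts. Groups given only once were not all stable to this. The interferon response median went from -0.05 to 0.02, and that of follicular helper T cell genes from -0.02 to 0.007.

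The transgene target itself did not separate the genotypes. The Tnfsf8 probe set read 6.22, 6.32, 6.29 and 6.29 in transgenic mice 1 to 4 and 6.26, 6.67, 6.35 and 6.08 in wild type mice 1 to 4. The 2 ranges overlapped, and the difference was -0.06 ± 0.13 (SE, n = 4 per genotype; limma adjusted p = 0.982). Tnfrsf8 read 5.76, 5.70, 5.77 and 5.43 in transgenic mice and 5.65, 5.90, 5.74 and 5.85 in wild type mice, a difference of -0.12 ± 0.11 (adjusted p = 0.973). Whether this Tnfsf8 probe set covers the sequence used in the transgene is not given in the sources used here, so the array does not check the genotype.

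No single transcript passed the adjusted test, but the unadjusted differences leaned towards higher levels in the transgenic nodes. Of 27022 probe sets tested, 0 (0%) had an adjusted p under 0.05 in limma, and the smallest adjusted p was 0.295. At an unadjusted p under 0.05, 1274 probe sets were counted, of which 870 were higher and 404 lower in transgenic nodes. With each gene represented by 1 probe set, 489 of 13117 genes were higher at an unadjusted p under 0.05 (3.73%) and 156 were lower (1.19%). The 4 transgenic arrays lay entirely above the 4 wild type arrays for 450 genes (3.43%) and entirely below for 156 (1.19%). With each array set to a common median in place of quantile normalization, the shares at an unadjusted p under 0.05 were 4.13% higher and 0.42% lower. The p-values measure the spread among these 4 and 4 mice. In whole nodes, fewer cells of a type and less RNA per cell cannot be told apart.

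The genes with the smallest p among the higher ones were mostly genes of mitosis and of germinal centre B cells. Cdca8, or borealin, a subunit of the chromosomal passenger complex that corrects spindle attachment, read 8.78, 8.91, 8.71 and 8.79 in transgenic mice and 8.13, 7.98, 8.05 and 7.99 in wild type mice. It was 1.69-fold higher, a log2 difference of 0.76 ± 0.08 with an adjusted p of 0.295. The groups did not overlap, and its other 2 probe sets gave 0.45 and 0.47. Cenpn, a kinetochore protein, read 7.13, 6.82, 6.84 and 7.03 against 6.10, 5.68, 5.81 and 6.05, a difference of 1.05 ± 0.13. Its other probe set gave 0.25, with overlap. Cdc20, the activator of the anaphase-promoting complex, read 9.94, 10.10, 9.99 and 9.92 against 9.57, 9.08, 9.09 and 9.03, a difference of 0.80 ± 0.13. In the quoted probe set of each of these genes, all arrays of the transgenic mice were above all wild type arrays. Nek2, a centrosome kinase, Asf1b, a histone chaperone, and Kif2c, a kinesin that shortens microtubules, were higher by 0.73 ± 0.10, 0.56 ± 0.09 and 0.55 ± 0.09, again without overlap. The other tested Nek2 probe set gave 0.55 ± 0.13, but those of Kif2c overlapped at 0.22 ± 0.14 and -0.09 ± 0.35, so the direction of Kif2c depended on the probe set. The probe sets quoted for Cdca8, Cenpn and Nek2 are of the kind that can match several transcripts, and those for Cdc20 and Kif2c can bind similar sequences. Some probe sets quoted below are also of these kinds, such as those for Mcm5 and Rrm2.

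Genes of the germinal centre reaction and of T cells stood in the same group. Mef2b, a transcription factor active upstream of Bcl6 in germinal centre B cells, read 8.28, 8.61, 8.27 and 8.38 in transgenic mice and 7.76, 7.33, 7.22 and 7.34 in wild type mice. Rgs13, which dampens chemokine receptor signalling in germinal centre B cells, read 9.80, 9.99, 9.86 and 9.81 against 9.33, 8.53, 8.78 and 8.70. Neither gene overlapped between genotypes. Mef2b was 1.96-fold higher (0.97 ± 0.14, adjusted p = 0.362) and Rgs13 was 2.04-fold higher (1.03 ± 0.17, adjusted p = 0.368). Tox, a nuclear factor of developing and of chronically stimulated T cells, read 8.78, 8.67, 8.61 and 8.78 against 7.93, 7.74, 8.08 and 7.92, a difference of 0.79 ± 0.10 (adjusted p = 0.295). Its other probe sets gave 0.11 and 0.40. Snap91, a clathrin assembly protein best known from synapses, was dim but apart, at 6.44, 6.39, 6.31 and 6.20 against 5.81, 5.60, 5.50 and 5.50 (0.73 ± 0.10, adjusted p = 0.357). Pard3, a cell polarity protein, had 1 probe set at 0.86 and others at -0.17 and -0.40, so its direction depended on the probe set.

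**Figure D1:**
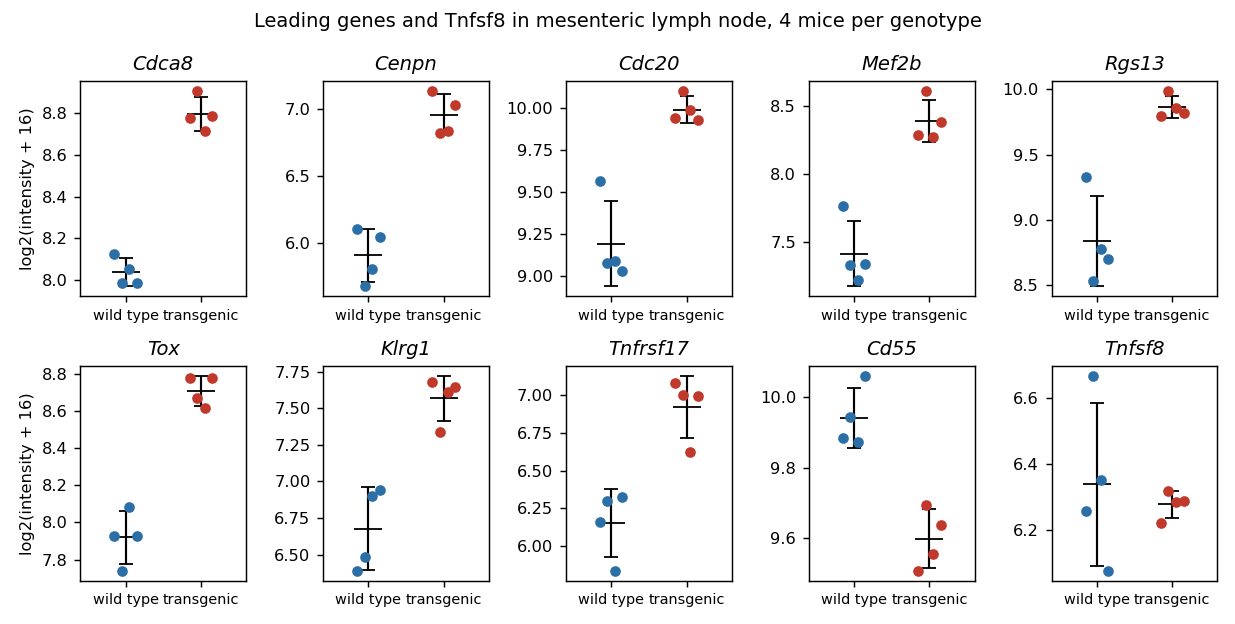
Normalized log2(intensity + 16) of 10 genes on each mesenteric array, 1 point per mouse, with the mean and SD of 4 mice per genotype as black marks. Transgenic points lie entirely above wild type points for Cdca8, Cenpn, Cdc20, Mef2b, Rgs13, Tox, Klrg1 and Tnfrsf17 and entirely below for Cd55, while the 2 genotypes overlap for Tnfsf8.

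Cell cycle genes differed most broadly, with the largest share of members at an unadjusted p under 0.05 among the 39 gene lists examined. Of 113 genes listed, 109 were tested, and 105 of them were above 0 and 4 below. Their median difference was 0.37, against 0.02 over all genes. At an unadjusted p under 0.05, 80 of the 109 were higher and 0 lower, where 3.73% and 1.19% of all genes were. For 66 of the 109 the transgenic arrays lay entirely above the wild type arrays, against 3.43% of all genes. None had an adjusted p under 0.05. The mean over the list was 8.58, 8.79, 8.67 and 8.68 in transgenic mice 1 to 4 and 8.38, 8.34, 8.22 and 8.30 in wild type mice 1 to 4, so every transgenic node was above every wild type node. Without the 3 arrays that carried pancreas transcripts, 80 genes were higher at an unadjusted p under 0.05 and the median was 0.44. With the deposited values and no normalization between arrays the count was 25, where the share of all genes was 0.878%, and the median was 0.47 beside 0.11 for all genes.

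The difference ran through the steps of the cycle. Among 17 genes of origin licensing and the replicative helicase, the median was 0.35 and 14 were higher at an unadjusted p under 0.05. Mcm5, a subunit of the helicase that unwinds DNA, read 10.66, 10.72, 10.55 and 10.54 in transgenic mice and 10.27, 10.13, 10.11 and 10.14 in wild type mice (0.46 ± 0.08). Gins1, part of the same replication machine, read 7.34, 7.42, 7.07 and 7.41 against 6.73, 6.29, 6.63 and 6.55 (0.76 ± 0.13). Neither gene's groups overlapped, and Gins2 and Mcm2 differed by 0.56 ± 0.10 and 0.48 ± 0.10. Among 19 genes of DNA synthesis, the median was 0.37 and 14 were higher. Rrm2, a subunit of the enzyme that makes deoxynucleotides, read 10.44, 10.71, 10.59 and 10.55 against 10.23, 10.14, 9.80 and 10.03 (0.52 ± 0.12), while Pcna, the sliding clamp of DNA polymerases, overlapped at 0.13 ± 0.11. Uhrf1, which recruits the maintenance methyltransferase to newly copied DNA, read 9.01, 9.24, 9.03 and 9.16 against 8.70, 8.50, 8.48 and 8.51 (0.56 ± 0.09).

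The regulators and the mitotic apparatus followed. Among 22 cyclins, kinases and their regulators the median was 0.41, and 15 were higher at an unadjusted p under 0.05. Ccnb2, a mitotic cyclin, read 8.66, 9.01, 9.10 and 9.06 in transgenic mice and 8.35, 8.27, 8.18 and 8.52 in wild type mice (0.63 ± 0.13). Its partner kinase Cdk1 differed by 0.49 ± 0.12, without overlap. The E2F repressors E2f7 and E2f8, which switch off the S phase programme, were also apart, by 0.71 ± 0.12 and 0.66 ± 0.11. Cdc25a, a phosphatase that starts S phase, Foxm1, a mitotic transcription factor, and Ccne1, a cyclin of S phase entry, were below 0 at -0.26 ± 0.19, -0.22 ± 0.17 and -0.01 ± 0.20, and all 3 overlapped. The 32 spindle and kinetochore genes were all above 0, with a median of 0.40 and 28 higher at an unadjusted p under 0.05. Bub1, a checkpoint kinase at kinetochores, was apart by 0.53 ± 0.11. Sgo1, the protector of centromeric cohesion, had the highest difference of the whole list: it read 6.10, 6.67, 5.90 and 6.01 against 5.75, 4.69, 4.87 and 4.48 (1.22 ± 0.29), near the dim end of the scale. Plk1, the polo kinase of mitosis, differed by 0.58 ± 0.16 with overlap. The 7 genes of anaphase and ubiquitin transfer had a median of 0.14 and 2 higher, and Fzr1, the alternative activator used in G1, was at -0.06 ± 0.17. Among 12 condensation genes and proliferation markers the median was 0.31 and 7 were higher. Mki67, the standard proliferation marker, read 10.23, 10.43, 10.22 and 10.16 against 10.01, 9.78, 9.45 and 9.56 (0.56 ± 0.13), without overlap.

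**Figure D2:**
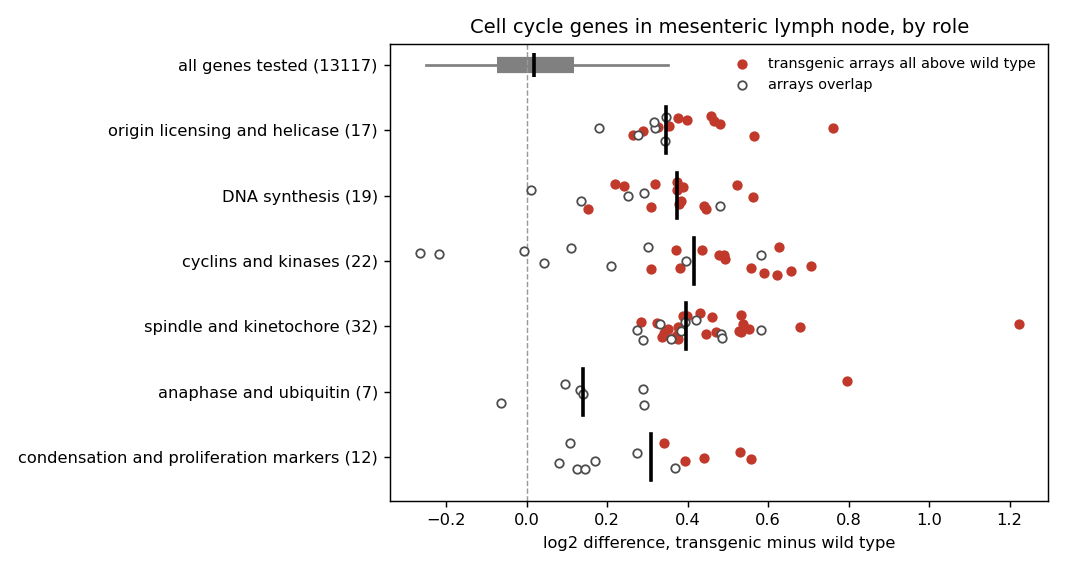
Log2 difference, transgenic minus wild type, of 109 cell cycle genes grouped by role, 1 point per gene, with the median of each role as a black bar. The top line shows all 13117 genes tested (median as a tick, percentiles 25 to 75 as a thick bar and 5 to 95 as a thin line). Filled points are genes whose transgenic arrays all exceed the wild type arrays, and all 32 spindle and kinetochore genes lie right of 0.

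The promoters of the cell cycle genes were examined for the elements that textbooks tie to the cycle. The whole list was taken, whatever the differences of its members. The shares therefore describe the list and say nothing about the difference between genotypes. RefSeq windows of GRCm38.p6, reaching from 250 bases before to 50 after a gene's start, were found for 90 of the 109 genes and for 10528 of the 13117 genes tested. Exact matches on either strand were counted for E2F sites, known from replication genes (TTTGGCGC, TTTCGCGC, TTTCCCGC or TTTGCCGC), for the cell cycle genes homology region or CHR (TTTGAA), known from mitotic genes, and for the CCAAT box. An E2F match was present in 23.3% of cell cycle genes with a window and 4.41% of all genes, a CHR match in 46.7% and 14.8%, and a CCAAT box in 70% and 42.3%. CHR and CCAAT matches occurred together in 40% and 7.03%. The spindle and kinetochore genes with a window numbered 27, of which 66.7% held a CHR match and 0% an E2F match. The 13 licensing and helicase genes with a window held an E2F match in 53.8% and a CHR match in 30.8%. The windows of 5 of the genes above are shown as examples of the 2 types, 5' to 3' on the strand of the gene, with the matches in capitals (a capital ATTGG is a CCAAT box on the other strand). Cdc20, Cdca8 and Ccnb2 lie on the minus strand at chr4:118437294-118437593, chr4:124936868-124937167 and chr9:70421505-70421804. Their windows hold CHR and CCAAT matches and no E2F match, and in Cdca8 the CHR match overlaps a CCAAT box on the other strand.
Cdc20: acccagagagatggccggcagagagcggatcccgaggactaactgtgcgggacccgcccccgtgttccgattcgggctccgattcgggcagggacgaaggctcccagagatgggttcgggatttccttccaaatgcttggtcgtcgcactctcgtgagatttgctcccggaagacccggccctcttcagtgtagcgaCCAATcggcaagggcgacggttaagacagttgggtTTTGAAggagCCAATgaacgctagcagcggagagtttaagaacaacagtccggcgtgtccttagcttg
Cdca8: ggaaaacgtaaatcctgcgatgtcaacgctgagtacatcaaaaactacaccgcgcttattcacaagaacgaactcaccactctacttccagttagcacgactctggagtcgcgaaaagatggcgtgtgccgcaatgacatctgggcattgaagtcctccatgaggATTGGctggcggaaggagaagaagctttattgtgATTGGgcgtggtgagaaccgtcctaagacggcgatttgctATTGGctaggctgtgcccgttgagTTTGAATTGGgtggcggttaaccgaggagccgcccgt
Ccnb2: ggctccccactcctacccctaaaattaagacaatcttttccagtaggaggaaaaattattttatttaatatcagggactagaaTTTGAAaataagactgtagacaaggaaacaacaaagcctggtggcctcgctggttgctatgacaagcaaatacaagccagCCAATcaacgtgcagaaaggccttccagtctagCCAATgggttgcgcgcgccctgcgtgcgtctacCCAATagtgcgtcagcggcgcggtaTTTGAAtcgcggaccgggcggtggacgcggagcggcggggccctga
Mcm5 and Uhrf1 lie on the plus strand at chr8:75109259-75109558 and chr17:56304063-56304362. Both hold E2F and CCAAT matches and no CHR match, and the 2 E2F matches of Mcm5 overlap each other on opposite strands. Uhrf1 has a second window that is not shown.
Mcm5: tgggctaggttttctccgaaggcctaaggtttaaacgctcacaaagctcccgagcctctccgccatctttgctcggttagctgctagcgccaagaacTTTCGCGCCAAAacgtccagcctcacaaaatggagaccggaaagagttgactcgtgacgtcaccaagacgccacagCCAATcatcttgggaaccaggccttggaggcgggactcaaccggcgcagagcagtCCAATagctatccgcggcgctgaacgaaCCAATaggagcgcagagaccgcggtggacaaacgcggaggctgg
Uhrf1: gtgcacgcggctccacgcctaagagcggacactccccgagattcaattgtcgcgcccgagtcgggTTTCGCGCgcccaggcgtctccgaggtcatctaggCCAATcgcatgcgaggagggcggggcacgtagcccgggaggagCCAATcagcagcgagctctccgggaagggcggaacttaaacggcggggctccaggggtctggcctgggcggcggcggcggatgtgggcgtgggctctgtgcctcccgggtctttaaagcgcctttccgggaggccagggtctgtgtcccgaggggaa
A match describes these letters and is not a measured binding site.

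Germinal centre B cell genes differed in the same direction by a smaller amount. Of 45 listed, 37 were tested, with a median of 0.22 and 27 above and 10 below 0. At an unadjusted p under 0.05, 14 were higher and 0 lower, beside 3.73% and 1.19% of all genes. Of the 37, 10 were apart upward and 1 downward, beside 3.43% and 1.19%. The list mean was 9.21, 9.38, 9.21 and 9.28 in transgenic mice and 9.13, 9.06, 8.98 and 9.05 in wild type mice, without overlap. None of the 37 genes is on the cell cycle list, but Nek2, the mitotic kinase described above, is among the 37 and has their smallest p. Without the 3 arrays that carried pancreas transcripts, 13 were higher at an unadjusted p under 0.05 and the median was 0.26. With the deposited values and no normalization the count was 4, beside 0.878% of all genes, and with the median over all probe sets of a gene the list median was 0.15. Their promoter windows, found for 32, held an E2F match in 6.25% and a CHR match in 25%.

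By role, 4 of 10 germinal centre genes of signalling and confinement, 3 of 4 of antibody gene diversification and 4 of 14 surface and other markers were higher at an unadjusted p under 0.05. So were Mef2b, Mybl1 and Klhl6, 3 of 9 in a role that holds transcription factors and, beside them, Klhl6. Gcsam, an adaptor of germinal centre B cells that limits their motility, read 8.21, 8.39, 8.21 and 8.21 in transgenic mice and 8.04, 7.73, 7.79 and 7.73 in wild type mice (0.43 ± 0.10). Ung, the uracil glycosylase that processes the lesions made during hypermutation, read 8.22, 8.04, 8.25 and 8.35 against 7.95, 7.90, 7.97 and 7.89 (0.29 ± 0.09). Exo1, an exonuclease of mismatch repair, was apart by 0.39 ± 0.11. Neil1, a DNA glycosylase, and Polh, a lesion-bypass polymerase, differed by 0.38 ± 0.15 and 0.36 ± 0.15, with overlap. Tnfrsf13c, the BAFF receptor that sustains B cells, was apart by 0.28 ± 0.09, Rassf6 by 0.38 ± 0.11, and Basp1 and Klhl6 differed by 0.33 ± 0.11 and 0.26 ± 0.09. Mybl1, a MYB factor of germinal centre B cells, differed by 0.67 ± 0.18 and overlapped through wild type mouse 1 at 7.73. Some defining genes of the state overlapped between genotypes. Bcl6, its master regulator, read 9.15, 9.44, 9.37 and 9.28 against 9.26, 8.99, 8.96 and 9.16 (0.22 ± 0.11), and Fas and S1pr2 differed by 0.34 ± 0.20 and 0.37 ± 0.14. Fcer2a, the low-affinity IgE receptor of resting follicular B cells, was at -0.27 ± 0.13 with overlap. Rgs1 was the 1 gene apart downward, at -0.22 ± 0.11. General B cell genes did not share the shift: the 22 genes of the B cell receptor and lineage had a median of 0.01, with 11 above and 11 below 0.

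Plasma cell genes showed a difference in a few members. The 31 genes tested had a median of 0.05, with 6 higher at an unadjusted p under 0.05, 0 lower and 3 apart upward, beside 3.73%, 1.19% and 3.43% of all genes. Tnfrsf17, or BCMA, the survival receptor of plasma cells, read 7.08, 7.002, 6.62 and 6.997 in transgenic mice and 6.16, 6.30, 5.83 and 6.32 in wild type mice (0.77 ± 0.15, adjusted p = 0.448). Eaf2, an elongation factor of germinal centre B cells and plasma cells, read 8.38, 8.35, 8.31 and 8.28 against 8.15, 7.78, 7.76 and 7.59 (0.51 ± 0.12). Mzb1, a chaperone of antibody assembly, was the third gene apart, by 0.29 ± 0.09. The genes that define the cells themselves differed little: Jchain, which joins IgA and IgM, was at 0.04 ± 0.09, Xbp1, the factor of the secretory programme, at -0.03 ± 0.08, Prdm1, which starts it, at 0.16 ± 0.15 and Sdc1, the surface marker CD138, at 0.19 ± 0.11, all with overlap. The 7 tested members of the immunoglobulin list, 5 antibody chains and the Fc receptor family genes Fcrla and Fcgr2b, had a median of -0.03 (0.07 with deposited values), and Igha was at 0.12 ± 0.08. Igha and Ighm lie near the top of the intensity scale, where an array can compress differences.

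T cell genes were mixed, with effector genes in both directions. The 21 follicular helper T cell genes tested had a median of -0.02 and 7 above 0, and the median was 0.11 with deposited values. Tox and Icos were the 2 with an unadjusted p under 0.05. Icos, the costimulator of helper cells for B cells, read 9.57, 9.63, 9.73 and 9.69 in transgenic mice and 9.49, 9.13, 9.43 and 9.36 in wild type mice (0.30 ± 0.10). Cxcr5 and Pdcd1, markers of these cells, overlapped at 0.02 ± 0.15 and 0.33 ± 0.22, and Il21, their main cytokine, at 0.14 ± 0.18. Klrg1, an inhibitory receptor of effector and of some regulatory T cells, read 7.68, 7.34, 7.61 and 7.65 against 6.39, 6.48, 6.90 and 6.94 (0.89 ± 0.15, adjusted p = 0.368), without overlap. The 41 genes of activated and effector T cells had a median of 0.03, with 6 higher and 1 lower at an unadjusted p under 0.05, beside 3.73% and 1.19% of all genes. Tbx21, or T-bet, the factor of type 1 responses, read 7.75, 7.90, 7.56 and 7.87 against 6.83, 6.51, 7.20 and 7.56 (0.75 ± 0.21). The highest wild type and the lowest transgenic Tbx21 reading nearly met. Ccr2, a chemokine receptor of effector T cells and monocytes, and Il18r1, a cytokine receptor of type 1 cells, were apart by 0.38 ± 0.09 and 0.36 ± 0.08. Eomes and Gzmk differed by 0.27 ± 0.10 and 0.42 ± 0.16 with overlap. Gzma, a granule protease, was apart in the other direction at -0.28 ± 0.09. Gzmb and Prf1, also of cytotoxic granules, were at -0.49 ± 0.24 and -0.41 ± 0.23 with overlap, and 17 of the 41 genes were below 0. Of 13 natural killer and innate lymphoid cell genes tested, 11 were below 0. Their median was -0.13, and -0.28 without the 3 arrays that carried pancreas transcripts. Foxp3, the factor of regulatory T cells, overlapped at 0.24 ± 0.20.

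Genes of naive T cells were lower on average without passing any test. Of 16 tested, 15 were below 0, the median was -0.12 and 0 had an unadjusted p under 0.05. S1pr1, which lets lymphocytes leave the node, Ccr7, which brings them in, and Il7r, which keeps naive cells alive, were at -0.48 ± 0.25, -0.30 ± 0.19 and -0.30 ± 0.17. The direction of the list depended on the scaling: its median was 0.02 with deposited values and 0.03 with a common median, where the median of all genes was 0.11 and 0.12. The 17 genes of the T cell receptor complex and other pan T cell markers had a median of -0.06, which was 0.06 and 0.07 under the same 2 scalings. Without the 3 arrays that carried pancreas transcripts, the medians were -0.23 for naive T cell genes, with 14 of 16 below 0, and -0.22 for the pan T cell markers, with 15 of 17 below 0.

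Macrophage and complement genes were lower on average after quantile normalization. Of 28 macrophage and monocyte genes tested, 24 were below 0, where 5767 of 13117 of all genes were. The list mean was 9.74, 9.74, 9.77 and 9.74 in transgenic mice and 9.90, 9.98, 9.81 and 9.81 in wild type mice. Every transgenic node was below every wild type node, with a median over genes of -0.11. That median was 0.03 with deposited values and with a common median, where the median of all genes was 0.11 and 0.12. Ccr2 was the 1 gene higher at an unadjusted p under 0.05, beside 3.73% of all genes. C1qa and C1qc, chains of the first complement component made by tissue macrophages, were the 2 that were lower, beside 1.19%. C1qa read 11.41, 11.72, 11.85 and 11.81 against 12.01, 12.07, 11.88 and 11.92 (-0.27 ± 0.12), C1qc was also apart at -0.27 ± 0.11, and C1qb overlapped at -0.09 ± 0.11. Adgre1, or F4/80, was at -0.22 ± 0.14. Of 14 complement genes, 10 were below 0. At an unadjusted p under 0.05, 3 were lower, and 4 were apart downward, beside 1.19% of all genes for each. The list median of -0.11 was 0.05 under either of the 2 other scalings. Without the 3 arrays that carried pancreas transcripts, the macrophage and complement medians were -0.06 and -0.08. In that setting 1.8% of all genes and 1 complement gene were lower at an unadjusted p under 0.05. Cd55, which protects cells from complement, had the smallest p of them and read 9.51, 9.69, 9.56 and 9.64 in transgenic mice against 9.88, 9.94, 9.87 and 10.06 in wild type mice (-0.34 ± 0.09, adjusted p = 0.661). Cd55 kept its direction under both scalings, at -0.19 with deposited values. Cfp, or properdin, was apart at -0.20 ± 0.09.

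**Figure D3:**
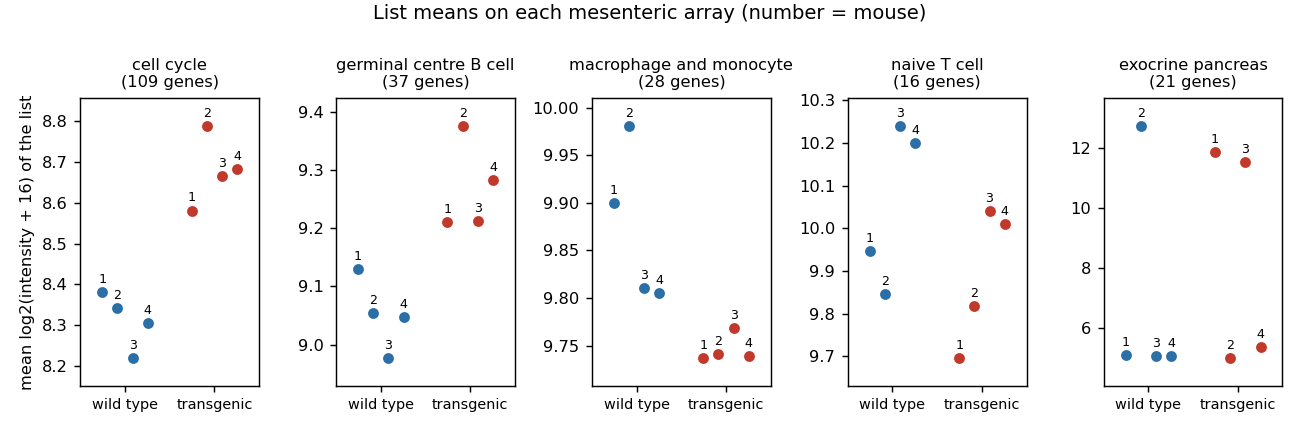
Mean log2(intensity + 16) of 5 gene lists on each mesenteric array, with the mouse number beside each point and its own axis for each list. Transgenic means lie above wild type means for cell cycle and germinal centre B cell genes. They lie below for macrophage and monocyte genes after quantile normalization. With deposited values the medians of the macrophage and naive T cell lists are above 0, where the median of all genes is 0.11. The exocrine pancreas list separates 3 arrays of both genotypes.

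Other gene groups gave fewer differences. Of 34 TNF superfamily ligands, receptors and adaptors tested, 22 were above 0 with a median of 0.07, but without the 3 arrays that carried pancreas transcripts 16 were above and 18 below 0, with a median of -0.01. Tnfrsf17 and Tnfrsf13c were the 2 higher at an unadjusted p under 0.05, a share near the 3.73% of all genes, and Tnfsf10, or TRAIL, at -0.28 ± 0.11, was the 1 lower. Of 26 NF-kB subunits and targets, the median was -0.04 and 2 were higher: Ccl17, a chemokine of dendritic cells, read 6.44, 6.67, 7.02 and 6.52 against 6.22, 5.88, 6.37 and 6.18 (0.50 ± 0.16), and Nfkbib, an NF-kB inhibitor, differed by 0.29 ± 0.11. Both were apart. Cd40, Traf1 and Traf2 overlapped at 0.17 ± 0.17, 0.03 ± 0.13 and 0.24 ± 0.17. Of the genes that direct lymphocytes to tissues, Gpr15, a receptor for homing to the large intestine, read 6.34, 6.33, 6.36 and 6.31 against 5.96, 5.96, 6.06 and 5.79 (0.39 ± 0.09). Selp, the P-selectin of activated vessels, was apart by 0.51 ± 0.14, whereas Ccr9 and Madcam1, a gut homing receptor and the vessel addressin of gut nodes, overlapped at -0.01 ± 0.20 and -0.18 ± 0.16. The 17 genes of IgA switching and gut B cells had a median of -0.01 and 0 higher at an unadjusted p under 0.05. Cholesterol and lipid synthesis genes, which dividing cells use for membranes, were above 0 in 18 of 22 with a median of 0.12 and 0 at an unadjusted p under 0.05, and glycolytic enzymes in 16 of 20 with a median of 0.11 and 1. Interferon response, MHC class I and MHC class II genes had medians of -0.05, -0.06 and -0.05 and 0 at an unadjusted p under 0.05. With deposited values these 3 medians were above 0, at 0.09, 0.12 and 0.05, and so were those of the NF-kB and IgA lists, at 0.10 and 0.12, beside 0.11 for all genes.

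The genes lower in transgenic nodes with the smallest p often rested on 1 probe set. Vps39, a tethering factor of late endosomes, read 5.38 to 5.58 in transgenic mice and 5.89 to 6.16 in wild type mice (-0.58 ± 0.10, adjusted p = 0.368). Its other probe set gave 0.02. Gosr2, a Golgi SNARE, was at -1.27 ± 0.25 in 1 probe set and at 0.05 in the other. Sema3c, a semaphorin, was at -0.75 and 0.43, and Myo9a, an unconventional myosin, at -1.34 and 0.10. Lrat, which stores retinol as esters, was lower in both of its probe sets, at -0.62 ± 0.12 and, with overlap, at -0.41 ± 0.14. Nudt13, Slc22a5, Cds1, Clca3a1, Fuz, Usp19 and Pex5 made up the rest of the 12, between -0.69 and -0.42. Other tested probe sets of Nudt13 gave 0.22 and -0.05, of Slc22a5 -0.07 and of Clca3a1 -0.14, all with overlap. Those of Usp19 gave 0.09, 0.73 and -0.13, also with overlap. The other Pex5 probe set was apart downward at -0.17 ± 0.08.

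Ugp2, which makes UDP-glucose for glycogen and sugar chains, differed between genotypes in each of its probe sets. The 5 were all apart upward in the mesenteric node, by 0.49, 0.62, 0.71, 0.89 and 1.14. The probe set with the smallest p read 9.45, 9.32, 9.41 and 9.65 in transgenic mice and 8.65, 8.74, 8.78 and 8.82 in wild type mice (0.71 ± 0.10, adjusted p = 0.357). The same probe set differed by 0.59 ± 0.06 in peripheral lymph node, 0.73 ± 0.14 in spleen and 0.75 ± 0.13 in thymus of the same mice, without overlap in any of the 4 tissues. Its 2 nearest tested neighbours along the chromosome were also apart upward: Vps54, a subunit of a Golgi tethering complex, by 0.43 ± 0.12 and Mdh1, the cytosolic malate dehydrogenase, by 0.28 ± 0.08. The tested genes farther out, Lgalsl, Peli1, Aftph and Sertad2 on one side and Ehbp1 and B3gnt2 on the other, overlapped between genotypes. The place where the transgene inserted is not given in the sources used here.

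**Figure D4:**
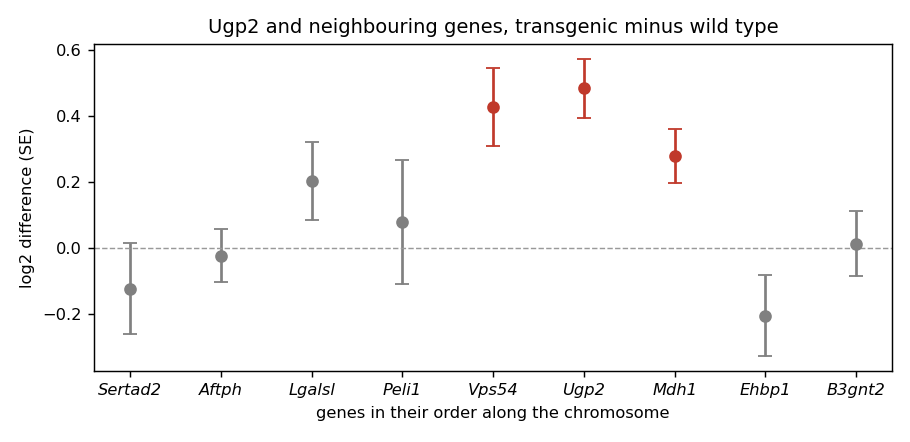
Log2 difference, transgenic minus wild type, in mesenteric lymph node for Ugp2 and neighbouring genes that were tested, in their order along the chromosome, with the SE of the fit as bars and 4 mice per genotype. Ugp2, Vps54 and Mdh1 (red) are the 3 genes whose transgenic arrays all exceed the wild type arrays.

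The transgenic effect in the mesenteric node was then set against that in peripheral lymph node of the same mice. Each mouse's difference between tissues was taken, so that the test asks whether the effect differs between the 2 nodes. The tissues had been normalized separately. Of 27896 probe sets, 0 (0%) passed an adjusted p under 0.05, with the smallest at 0.104, and 1524 had an unadjusted p under 0.05. Over genes, the mesenteric effect was above the peripheral effect in 3.13% and below in 1.47% at an unadjusted p under 0.05. The smallest p belonged to a probe set without a single gene name. The next 5 belonged to probe sets of Ighm and Iglv1, the IgM heavy chain and a lambda light chain. An Ighm probe set read 12.62, 12.11, 11.67 and 12.62 in transgenic and 9.37, 9.69, 10.19 and 9.22 in wild type peripheral nodes, but 11.54, 12.17, 11.68 and 12.25 against 12.80, 11.47, 12.58 and 12.49 in mesenteric nodes. The peripheral groups were apart and the mesenteric groups overlapped, and the difference of effects was -3.06 ± 0.41 (adjusted p = 0.409). The brightest Iglv1 probe set gave -1.45 ± 0.20. All 7 members of the immunoglobulin list had a lower effect in the mesenteric node, 4 of them, all antibody chains, at an unadjusted p under 0.05, with a median effect of -0.03 against 1.26. The probe sets of these genes did not act alike. The Ighm probe set with the highest level had effects of -0.03 ± 0.11 in mesenteric and 0.28 ± 0.15 in peripheral node, and the other Iglv1 probe sets had peripheral effects of 0.22 and 0.11.

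The 2 nodes differed less in the other groups. Cell cycle genes had a median effect of 0.37 in mesenteric and 0.54 in peripheral node, with 83 of 109 genes lower in the mesenteric effect and 16 of them at an unadjusted p under 0.05. The list mean in peripheral node was 8.43, 8.61, 8.40 and 8.94 in transgenic mice against 8.04, 8.08, 8.08 and 7.96, so it was apart in both nodes. Germinal centre B cell genes had medians of 0.22 and 0.24, with 3 genes lower and 0 higher at an unadjusted p under 0.05, beside 1.47% and 3.13% of all genes. The germinal centre list mean in peripheral node was 9.29 in transgenic and 8.85 in wild type mice, without overlap. That gap was wider than between the mesenteric list means, although the medians were close. Rgs13 had an effect of 1.03 in mesenteric and 2.83 in peripheral node (difference -1.80 ± 0.29, adjusted p = 0.556). Jchain, at 0.04 and 0.97, followed the immunoglobulin genes. Igha, itself on the immunoglobulin list, was at 0.12 and 1.64, and in mesenteric node it lies near the top of the intensity scale. Snap91 went the other way, at 0.73 and -0.03 (difference 0.76 ± 0.13, adjusted p = 0.604), with no overlap in mesenteric and overlap in peripheral node.

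Against spleen, nearly all cell cycle genes had a higher effect in the mesenteric node. Of 28904 probe sets, 0 (0%) passed an adjusted p under 0.05, with the smallest at 0.166, and the unadjusted count was 1741. Over genes the mesenteric effect was above the spleen effect in 4.35% and below in 2.2% at an unadjusted p under 0.05. Of 110 cell cycle genes, 108 had a higher effect in the mesenteric node, 75 at an unadjusted p under 0.05 and 0 in the other direction. Their median effect was 0.37 in the node and -0.26 in spleen, where the list mean read 9.25, 9.53, 9.12 and 9.20 in transgenic and 9.27, 9.41, 9.55 and 10.01 in wild type mice, with overlap. Ccnb2 differed by 1.24 ± 0.26 between the tissues and Mki67 by 0.98 ± 0.25 (adjusted p = 0.662 for both). Erythroid genes moved alongside: their list mean in spleen was 10.52, 10.78, 10.43 and 9.71 in transgenic and 10.64, 11.02, 11.07 and 11.51 in wild type mice, with a median effect of -0.78. The part of dividing erythroid cells in the spleen values was not tested.

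Lymphocyte genes went the other way in that comparison. T cell markers had a median effect of -0.06 in the mesenteric node and 0.29 in spleen, with 16 of 17 below and 7 at an unadjusted p under 0.05. Of all genes, 2.2% were below and 4.35% above at that p. For follicular helper T cell genes 21 of 22 were below and 5 at that p, and for plasma cell genes 29 of 31 and 5. Germinal centre B cell genes were lower in 9 and higher in 3 at that p, with median effects of 0.22 and 0.24. Their list mean in spleen was 9.18 in transgenic and 8.67 in wild type mice, without overlap, again a wider gap than in the mesenteric node. Rgs13 and Mef2b had effects of 1.03 and 0.97 in the node against 2.89 and 2.77 in spleen. Tubb4a, a beta tubulin, had the smallest p of this comparison (adjusted p = 0.166). It read 6.57, 6.88, 7.53 and 7.01 in transgenic spleens, while the 4 wild type spleens were at the floor of the scale, that is, listed at 0 or below. The size of the difference is therefore set by the pseudocount, at -2.96 with 16 and -6.77 with 1. In the mesenteric node it overlapped at 0.04 ± 0.19.

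**Figure D5:**
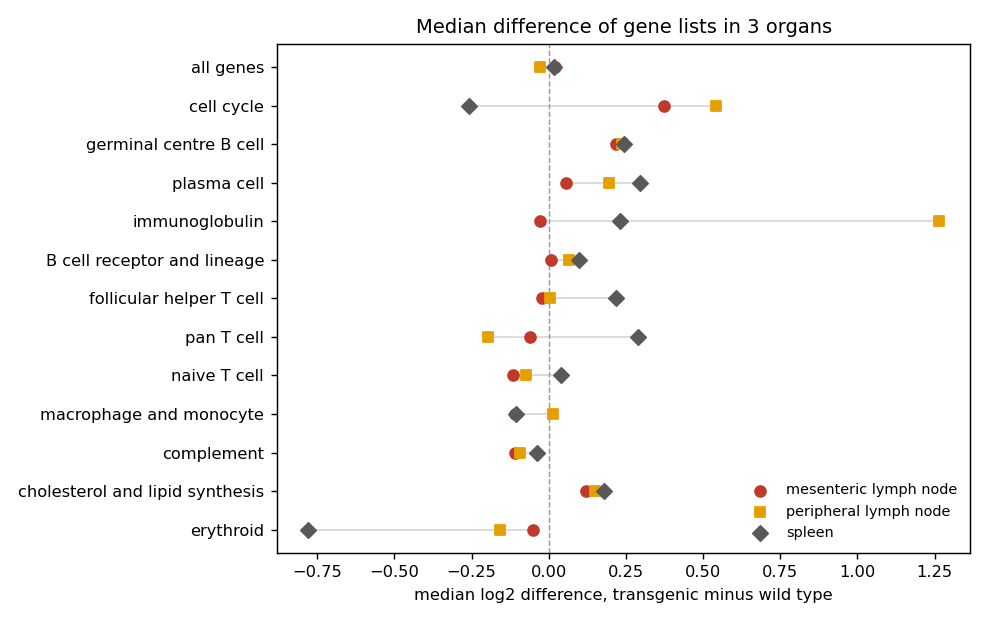
Median log2 difference, transgenic minus wild type, of 12 gene lists and of all genes in mesenteric lymph node, peripheral lymph node and spleen of the same mice, each tissue normalized separately. Cell cycle genes stand at 0.37, 0.54 and -0.26, and the immunoglobulin list is high in peripheral node and near 0 in mesenteric node. In mesenteric node, immunoglobulin, follicular helper T cell, pan T cell, naive T cell, macrophage, complement and erythroid genes have medians below 0. These turn above 0 with deposited values, where the median of all genes is 0.11.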

How the data were processed

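The authors deposited 1 table of Affymetrix probe set intensity values for all 32 arrays, made from total RNA labelled with biotin, per the labels' protocols. Its values are a linear intensity that can be negative after background subtraction. The summarization method is not given in the sources used here, and nor is the scaling. Of 45101 probe sets deposited, 64 control probe sets were left out. The platform annotation gave 34945 of the rest 1 gene symbol, 932 several and 9160 none, and 34741 of the 34945 were found in RefSeq GRCm38.p6.

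Negative values were set to 0, a pseudocount of 16 was added, log2 was taken, and the 8 mesenteric arrays were quantile normalized. Probe sets with a mean above percentile 40 were tested, which left 27022. limma 3.58.1 (lmFit and eBayes, in R 4.3.3) compared 4 transgenic with 4 wild type arrays, without covariates, and p-values were adjusted by the Benjamini-Hochberg method over all probe sets. Effects were compared between tissues by taking, mouse by mouse, the mesenteric minus the other log2 value and testing genotype on it in limma, over probe sets kept in either tissue. The fits were first tested on simulated data.

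Gene lists are described by counts and medians, with each gene represented by its probe set with 1 symbol and the highest mean over the 32 arrays. The members of the comparison and the 39 lists were chosen with earlier results of these data known. In all, 896 of 1002 list entries matched a probe set. Genes were named by a rule. It took Tnfsf8 and Tnfrsf8, the 12 probe sets with the smallest p in each direction among those apart between genotypes, and from each list up to 6 members with the smallest p and up to 6 that stand first in a role. It also took the 5 smallest p in each direction of each comparison of tissues and every probe set called under an alternative. Other members of the lists and neighbouring genes were named beside the rule, after their values were seen: Mcm5, Gins2, Rrm2, Ccnb2, Cdk1, Cdc25a, Foxm1, Ccne1, Bub1, Sgo1, Plk1, Fzr1, Mki67, Basp1, Klhl6, Neil1, Polh, Rgs1, S1pr2, Xbp1, Cxcr5, Il21, Gzmk, C1qb, Cd40, Traf2, Ccr9, Madcam1 and the neighbours of Ugp2.

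Alternatives covered the pseudocount, normalization, filter, array weights, variance moderation, 1 fit over all 32 arrays, blocks, a pancreas covariate and arrays left out. The mouse numbers do not show that transgenic and wild type mice with the same number form pairs: correlations of same-numbered deviations were -0.197, -0.435, -0.217 and 0.27. An array reports no molecule counts, so the number of arrays limits the precision. Promoter windows came from RefSeq GRCm38.p6.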

Additional observations from a re-analysis of the deposited data

Results flagged for a closer look

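In 23 of 276 groups of 4 arrays examined, 1 array lay far from the other 3 of its genotype, with a gap, divided by the group's range, above Dixon's critical value. Chance gives this in about 1 in 20 groups. The values are given without an explanation.

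Transgenic mouse 1 differed in RNA quality and in several lists. Its Actb 3' to 5' ratio was 3.10, against 1.59 to 1.75 in the other transgenic mice. The mean of the activated and effector T cell list was 7.67 on that array, against 7.87 to 7.90, of MHC class I genes 10.97, against 11.16 to 11.19, of homing receptors 9.38, against 9.70 to 9.71, and of adipocyte genes 10.88, against 10.11 to 10.19. Among genes it had the highest Fos, 8.08 against 7.29 to 7.38, and Ccr2, 7.87 against 7.76, and the lowest Xcr1, a receptor of cross-presenting dendritic cells, 5.19 against 6.50 to 6.74. Transgenic mouse 2 was highest for Gcsam at 8.39. Transgenic mouse 3 was highest for Vps39 at 5.58, lowest for Exo1 at 7.03, highest for the macrophage list at 9.77 and lowest for the heat shock list at 9.08.

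Wild type mouse 2 carried the highest exocrine pancreas mean, 12.74 against 5.05 to 5.09 in the other wild type mice. Its TNF superfamily mean was 7.87, its apoptosis list mean 8.17 and its reticular stroma mean 10.16, against 8.07, 8.51 to 8.57 and 10.01 to 10.03. Adgre1 read 10.32 there, against 9.72 to 9.81. Wild type mouse 1 was the highest of its genotype for 3 cell cycle genes: Cdc20 read 9.57 against 9.03 to 9.09, Uhrf1 8.70 against 8.48 to 8.51 and Mcm5 10.27 against 10.11 to 10.14. Wild type mouse 3 was highest for Rgs1 at 8.96 and lowest for Basp1 at 10.89.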

How the results depend on the processing

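In the mesenteric node the count of probe sets with an adjusted p under 0.05 was 0. Without the filter on low values it became 3: Cdca8 and, below the filter, Ccdc157 and 1 probe set without a single gene name. In 1 fit over all 32 arrays it became 2 (Snap91 and Ugp2). With values as deposited, 25 cell cycle genes in place of 80 and 4 germinal centre genes in place of 14 had an unadjusted p under 0.05. The cell cycle median was 0.47 as deposited and 0.48 with a common median, and the germinal centre median 0.35 under both, beside medians of all genes of 0.11 and 0.12. The germinal centre median was 0.15 over all probe sets of each gene. Against peripheral node there was 1 call with a pseudocount of 64, 1 with a common median and 1 with the filter at percentile 60. Each was the same probe set without a single gene name. As deposited there were 5 (Camp, 3 of Ighm and that same probe set). The comparison with spleen gave 1 call with a pseudocount of 1 and 1 as deposited, both Tubb4a. Why these settings differ was not tested.

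Leaving out each array in turn gave 0 calls throughout, 62 to 82 cell cycle genes and 10 to 14 germinal centre genes. With the replicate block the calls were 0, and 74 cell cycle and 12 germinal centre genes had an unadjusted p under 0.05. With mice 1 and 2 blocked against 3 and 4 the gene counts were 78 and 14, and with the pancreas mean as a covariate 78 and 15. Mouse 4 alone correlated best with its own number. Of 5840 comparisons of 282 named probe sets with an alternative, 164 changed sign, 0 of them among probe sets with an unadjusted p under 0.05. The signal of dim probe sets near background, and of Igha and Glycam1 near the top of the scale, limits what can be resolved.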

Other observations

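Lymphocyte precursor genes, which do not belong to the comparisons above, had a median of 0.26 in the mesenteric node. Of 9 listed, 5 were tested, all above 0, with 0 at an unadjusted p under 0.05. Without the 3 arrays that carried pancreas transcripts the median was 0.04, with 4 above and 1 below 0. Kit, a growth factor receptor of early progenitors and innate lymphoid cells, read 7.91 to 8.22 in transgenic mice and 7.50 to 7.96 in wild type mice, with overlap (0.26 ± 0.12). Igll1, a surrogate light chain, read 7.24, 7.07, 7.23 and 7.43 against 6.99, 4.00, 7.48 and 7.15, so its difference of 0.84 ± 0.69 rested on wild type mouse 2. Dntt and Cd34 overlapped at 0.19 ± 0.46 and 0.15 ± 0.15.

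Of 17 genes of apoptosis and the BCL2 family, 3 were higher at an unadjusted p under 0.05, beside 3.73% of all genes. The list mean was 8.17 in wild type mouse 2 and 8.51 to 8.57 in the other wild type mice, and without the 3 arrays that carried pancreas transcripts 2 were higher and the median went from 0.05 to 0.03. Bmf, a sensor of detachment, was apart by 0.28 ± 0.11, and Bid and Bik differed by 0.23 ± 0.09 and 0.83 ± 0.36 with overlap, while Bcl2, a survival factor kept low in germinal centre B cells, was at -0.17 ± 0.12. Among immediate early genes, Dusp1 and Fos were the 2 of 22 higher at that p, by 0.38 ± 0.12 and 0.55 ± 0.20, beside 3.73% of all genes. Fos was highest in transgenic mouse 1, at 8.08 against 7.29 to 7.38 in the other transgenic mice, and its difference was 0.36 without that array, which also had the highest Actb 3' to 5' ratio. The part of RNA quality in it was not tested.

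Several of the probe sets with the smallest p have no single gene name in the platform annotation, which gave them none or several. Among them, 3 were apart upward by 0.58 ± 0.09, 0.77 ± 0.13 and 0.81 ± 0.14, each with an adjusted p of 0.368.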
